A study of Mus musculus with 4 samples.

Results

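The Zfp genes carry a symbol made of Zfp and a number, the mouse name for zinc finger protein. Most encode proteins with tandem C2H2 zinc fingers, and they include Zfp69, whose FPKM differed several-fold between control and Foxa1/2cKO thymocytes. The members were chosen by symbol, leaving out Zfp36, and by a mean FPKM of at least 1 over the 4 samples of the series. This gave 256 of the 336 Zfp genes listed, out of 24421 genes listed in all. The other 80 lay under a mean FPKM of 1, and 16 of them were listed at 0 in all 4 samples. The name also takes in proteins with few C2H2 fingers or none, and it leaves out C2H2 genes with other symbols.

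CD69+DP thymocytes, double positive for CD4 and CD8 and newly signalled through the TCR, were sorted from the thymus of mice aged 6 weeks on a C57BL/6 background, and their RNA was sequenced. The 2 control and the 2 Foxa1/2cKO samples all came from mice with floxed alleles of both Foxa1 and Foxa2. Foxa1/2cKO mice also carried CD4-Cre, which deletes the floxed parts in T-lineage cells from the DP stage on, and control littermates lacked Cre. The samples came from separate sorts of different mice, with 2 mice per genotype in a sort. Foxa1 and Foxa2, which encode forkhead transcription factors, had a listed FPKM of 0 in every sample of both genotypes, so the deletion could not be checked from their values.

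A C2H2 finger is a short loop in which a pair of cysteines and a pair of histidines hold a zinc ion, and a row of fingers reads a stretch of DNA base by base. Many of these proteins also carry a KRAB box, which recruits the corepressor Trim28 and through it the histone methyltransferase Setdb1. KRAB zinc finger proteins are best known for silencing retroelements and for keeping imprints, and their genes lie in clusters that arose by duplication. Members without a KRAB box include general transcription factors, splicing factors and mitotic proteins.

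The libraries differed in depth and in make-up. The totals to which the FPKM were scaled ranged from 10796528 to 14968316 reads per sample. The first principal component of all 10776 tested genes took up 65.2% of the variance, with Foxa1/2cKO 2 (28.5) far from the other samples (-11.0 to -7.4). Summed FPKM of 10 DP thymocyte markers ranged from 3442 to 4407. The 5 cycling genes, Mki67 and Top2a among them, summed to 305 and 321 in the controls, against 365 in the first Foxa1/2cKO sample and 111 in the second, while 5 markers of mature single positive cells summed to 228, 255, 261 and 174 in the same order. Other cell types left lower sums. These were 50.3 to 104 for 5 B cell markers, 9.39 to 19.7 for 5 myeloid, 3.18 to 4.18 for 5 thymic epithelial with Foxn1 under 0.1, and 0.608 to 2.67 for 6 erythroid with 4 of them at 0. Because Foxa1/2cKO 2 stood apart, the counts over groups of members, and single genes that rest on it, are also given without it below. In such bulk samples, a smaller share of cells of one type cannot be told apart from less RNA per cell.

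The Zfp members were expressed at low to moderate levels. Their median of mean FPKM was 8.22, against 14.8 for all tested genes, and their median gene length was 3507 bases against 2750.5. The reads of a member in one sample ran from 16 for Zfp72 to 4685 for Zfp106, and 51 members had under 100 reads in at least 1 sample. All 256 members passed the filter for testing, 2 or more samples at an FPKM of 1 or more. Zfp931 passed it through the Foxa1/2cKO samples alone. Just inside the limit on mean FPKM, Zfp455 had 0.911 and 1.14 FPKM in controls and 1.16 and 0.798 in Foxa1/2cKO. Zfp248 ranged from 0.925 to 1.06 and Zfp229 from 1.03 to 1.23 over the 4 samples. Just outside it were Zfp383 with a mean FPKM of 0.996, Zfp558 with 0.987 and Zfp760 with 0.969.

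No member passed limma at an adjusted P of 0.05 (Benjamini-Hochberg over all tested genes), and 1 gene of all 10776 did (0.00928%). The lowest adjusted P of a member was 0.863. At an unadjusted P under 0.05, 11 members were higher in Foxa1/2cKO (2.39% of all tested genes were) and 4 were lower (2.15% of all). The 11 were Zfp69, Zfp369, Zfp292, Zfp644, Zfp831, Zfp106, Zfp260, Zfp87, Zfp407, Zfp219 and Zfp655, and the 4 were Zfp326, Zfp414, Zfp580 and Zfp362. Limma-voom on recovered reads gave 0 members at an adjusted P of 0.05 too.

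The fold changes of the members were mostly small. Their median log2 fold change, Foxa1/2cKO over control on log2(FPKM + 1), was 0.038, against 0.005 for all tested genes. The quartiles lay at -0.06 and 0.15 for the members, and at -0.11 and 0.11 for all tested genes. The SD of the log2 fold changes was 0.18 over the members, 0.17 without Zfp69 and 0.23 over all tested genes. In either direction, 4 members had a log2 fold change beyond 0.5 (1.56%, against 4.18% of all tested genes), namely Zfp69, Zfp369, Zfp169 and Zfp580.

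**Figure D1:**
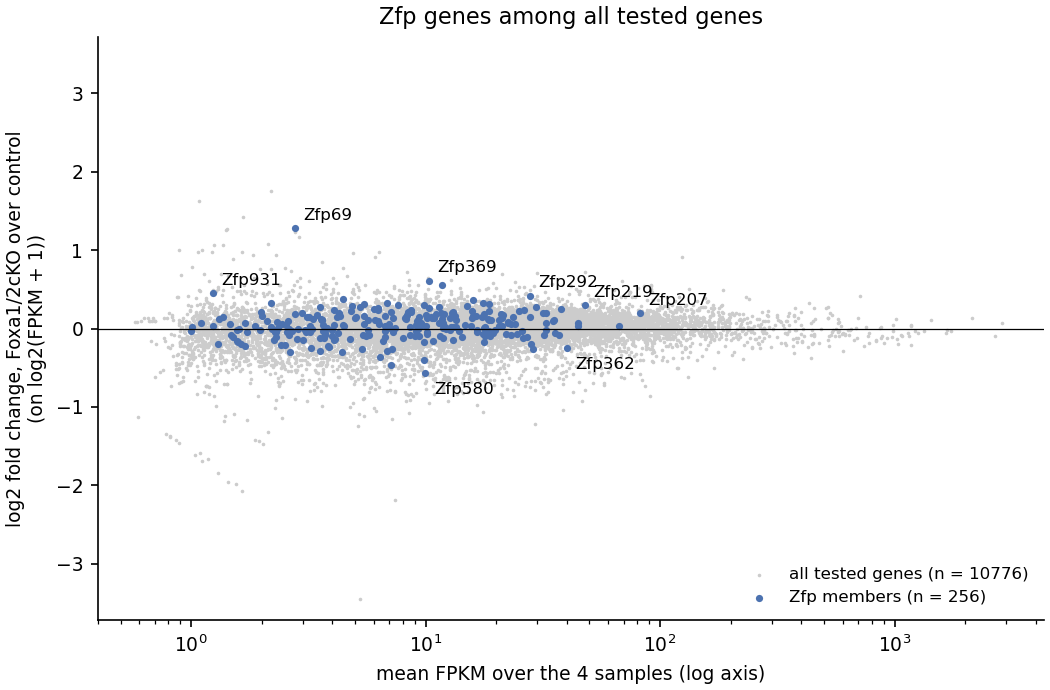
Log2 fold change (Foxa1/2cKO over control, on log2(FPKM + 1)) against mean FPKM over the 4 samples, on a log axis, for 256 Zfp members in blue and all 10776 tested genes in grey, each point a gene. Members form a band around 0, and Zfp69 stands above them at 1.28.

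More members had both Foxa1/2cKO samples above both controls than below. The groups lay apart with Foxa1/2cKO higher for 72 members (28.1%), where 18.9% of all tested genes did so. They lay apart with Foxa1/2cKO lower for 31 members (12.1%), where 17.8% of all tested genes did so, and for 153 members the groups overlapped. The 72 include Zfp931, which was tested through the Foxa1/2cKO samples alone. In all, 153 members had a positive log2 fold change (59.8%, against 51.3% of all tested genes). The split depends on the scaling. Scaled to all recovered reads, 65 members were apart and higher and 45 apart and lower, beside 15.8% and 22.0% of all tested genes, and with upper-quartile scaling 65 and 46.

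Either Foxa1/2cKO sample alone gave the same order of the counts. Without Foxa1/2cKO 2, the remaining sample lay above both controls for 115 members (44.9%, 36.4% of all tested genes) and below both for 86 (33.6%, 40.7% of all). Without Foxa1/2cKO 1, the counts were 137 above (53.5%, 46.3% of all) and 75 below (29.3%, 39.6% of all). Both of these pairs of counts share the 2 controls.

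**Figure D2:**
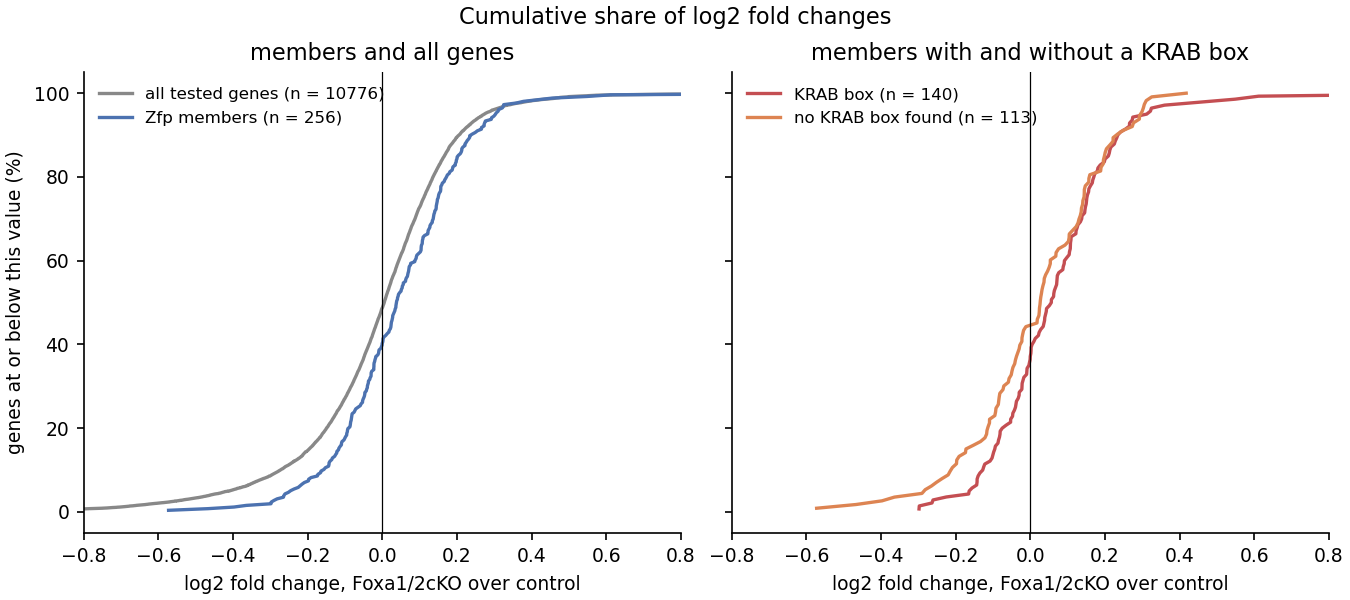
Cumulative share of genes (%) by log2 fold change, Foxa1/2cKO over control, for the 256 Zfp members and all tested genes on the left, and for the 140 members with and 113 without a KRAB box on the right. The axis stops at -0.8 and 0.8, so Zfp69 at 1.28 is beyond it, and the members' curve lies to the right of that of all genes over most of the range.

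The members varied less between samples of one genotype than all tested genes did. The SD of the log2 difference between the 2 controls was 0.13 over the members and 0.20 over all tested genes. Between the 2 Foxa1/2cKO samples it was 0.28 and 0.40. No member differed between the controls by more than 0.5 on the log2 scale, where 2.43% of all tested genes did. The narrower spread of the fold changes was also seen at matched levels. At a mean FPKM of 1 to 2, the SD of log2 fold changes was 0.16 over 22 members and 0.34 over 837 tested genes. At 2 to 5 it was 0.22 over 69 members and 0.27 over 1455 genes, at 5 to 20 it was 0.18 over 125 members and 0.23 over 3967 genes, and at 20 or more it was 0.15 over 40 members and 0.17 over 4393 genes. The longer transcripts of the members give more reads at a given FPKM, and the part of length in this spread was not tested.

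Foxa1/2cKO 2 held the highest value of the 4 samples for 121 members (47.3%, against 40.5% of all tested genes). It exceeded Foxa1/2cKO 1 for 163 members (63.7%, against 53.7% of all). In all, 8 members were higher there than in Foxa1/2cKO 1 by more than 0.5 on the log2 scale (3.13%, against 4.399% of all), and 10 were lower by as much (3.91%, against 10.3% of all). The 2 members at the ends of this order are named here after their values were seen. Zfp367 had 7.39 and 8.76 FPKM in the controls, against 9.32 and 3.15 in Foxa1/2cKO, so that Foxa1/2cKO 2 alone was low, as it was for the cycling genes. Whether these are linked was not tested. Zfp747 had 3.51 and 3.65 FPKM in controls and 3.14 and 5.98 in Foxa1/2cKO, with Foxa1/2cKO 2 alone high.

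**Figure D3:**
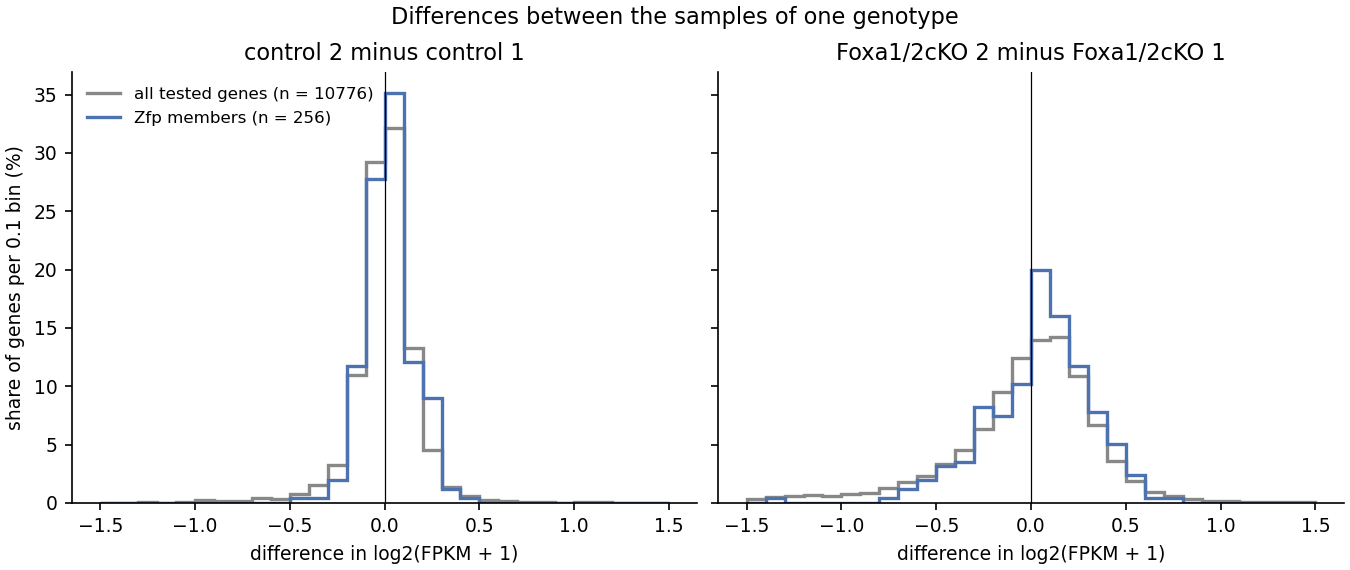
Share of genes (%) in bins of 0.1 by the difference in log2(FPKM + 1) between the 2 controls (left) and between the 2 Foxa1/2cKO samples (right), for 256 Zfp members (blue) and 10776 tested genes (grey). The differences are wider in Foxa1/2cKO, and the long left tail of all genes there holds few members.

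Zfp69 had the largest fold change of the members. It is a KRAB zinc finger gene on the minus strand of chromosome 4 (chr4:120930133-120951701 in mm10), and in C57BL/6 mice a retrotransposon in one of its introns is known to truncate much of its mRNA. The Zfp69 alleles of these mice were not examined. The annotation gives Zfp69 a protein of 587 residues with a KRAB box and 9 C2H2 fingers in tandem. The sequences below are the coding strand of the KRAB core, with the codon of its conserved tryptophan in capitals, and of the first, the fifth and the last finger, with the cysteine and histidine codons in capitals. They are shown because they carry the features by which the members are grouped further on.

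Zfp69 KRAB A box core, chr4:120935143-120935175: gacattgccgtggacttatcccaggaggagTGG

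Zfp69 finger 1, chr4:120931079-120931141: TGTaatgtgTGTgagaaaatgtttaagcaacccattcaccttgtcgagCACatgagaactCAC

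Zfp69 finger 5, chr4:120930743-120930805: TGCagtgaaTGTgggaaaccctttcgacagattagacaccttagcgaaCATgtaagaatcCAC

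Zfp69 finger 9, chr4:120930407-120930469: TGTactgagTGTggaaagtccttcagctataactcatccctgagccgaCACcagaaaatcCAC

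All of these lie on the minus strand, each within 1 exon, and the finger repeats share the spacing of the zinc-binding codons while the bases between them differ. No 50-base stretch of the longest annotated transcript of Zfp69 was found in another annotated gene.

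Zfp69 was measured at 0.989 and 1.40 FPKM in the controls, and at 3.68 and 4.995 FPKM in Foxa1/2cKO. These values rest on 35, 45, 94 and 131 reads. The Foxa1/2cKO samples were both above the controls, with group means of 4.34 ± 0.928 and 1.20 ± 0.292 (SD, n = 2 each), a 3.63-fold difference in FPKM. The log2 fold change was 1.28 (SE 0.20), and it stayed between 1.10 and 1.46 when any 1 sample was left out. Only 3 of the 10776 tested genes had a larger positive log2 fold change, and these were the microRNA genes Mir7087, Mir7036b and Mir7052. Zfp69 was chosen with this difference known, so the values are a description. Its limma adjusted P (Benjamini-Hochberg) was 0.863, and by unadjusted P it ranked 19 among all tested genes.

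The neighbours of Zfp69 did not show a difference of this size. Exo5, an exonuclease gene downstream of Zfp69, had 11.9 and 12.6 FPKM in the controls, against 10.9 and 12.6 in Foxa1/2cKO (log2 fold change -0.06, SE 0.11). Smap2, a GTPase-activating protein gene upstream of it, had 58.3 and 57.4 FPKM in controls and 56.3 and 79.6 in Foxa1/2cKO (0.21, SE 0.18). For both genes the groups overlapped, and for Smap2 Foxa1/2cKO 2 alone was high.

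The promoter of Zfp69 was rich in CpG, with 32 CpG in the 300 bases at an annotated start and 34 at another. The median member had 16 and the median tested gene 21, each gene taken at the median of its annotated starts. The window with 32 is printed with each CpG in capitals, from 250 bases before the annotated start to 50 after it (RefSeq, GRCm38.p6, minus strand). It is shown because the gene sits at one end of the members' fold changes.

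Zfp69 promoter, chr4:120951652-120951951: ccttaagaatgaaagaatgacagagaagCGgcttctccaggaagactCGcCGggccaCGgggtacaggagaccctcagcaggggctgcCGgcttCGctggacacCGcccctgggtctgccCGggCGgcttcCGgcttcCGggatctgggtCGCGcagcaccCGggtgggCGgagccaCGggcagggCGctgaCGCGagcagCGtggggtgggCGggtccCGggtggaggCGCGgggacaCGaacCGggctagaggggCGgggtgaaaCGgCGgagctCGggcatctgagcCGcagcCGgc

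The letters TGTTTAC and TATTTAC, forms of the core that forkhead factors bind, were searched on both strands of this window, and neither was found in it. Of the 214 members with a promoter in the RefSeq table, 7 held one of these letter strings (3.27%), as did 387 of 8180 tested genes (4.73%). The matches are shown in 30 bases each, with the matching letters in capitals on the gene's strand.

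Zfp687, chr3:95015248-95015277, minus: ccgggggggcggGTAAATAcccctgcccct

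Zfp157, chr5:138441239-138441268, plus: tttcagatacttTATTTACaaggttaagtg

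Zfp551, chr7:12422577-12422606, minus: gtttctgaggttTGTTTACctaactggaag

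Zfp688, chr7:127422160-127422189, minus: agcagctgtggaGTAAACActattgctctg

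Zfp72, chr13:74376579-74376608, minus: tttattggtaacTGTTTACttttgcaatta

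Zfp101, chr17:33394814-33394843, minus: aaggatcccacaTATTTACtccaaacggaa

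Zfp91, chr19:12796216-12796245, minus: tggaagcgcagaGTAAATAggactacgtct

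The median log2 fold change of these 7 members was 0.05, and -0.0031 without Foxa1/2cKO 2. Zfp551 (1.77 and 1.89 FPKM in the controls, 2.26 and 2.86 in Foxa1/2cKO) and Zfp101 (9.59, 9.60, 10.6 and 10.7) had both Foxa1/2cKO samples above both controls, and the groups overlapped for the other 5. The 2 of 7 (28.6%) stand beside 18.9% of all tested genes. A match of letters is not a binding site. The last bases of the promoter window of Zfp72 can be read as part of a KRAB core, so its annotated start may lie at an internal exon. Whether it does was not examined.

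After Zfp69, the members with the largest higher values in Foxa1/2cKO and groups apart were Zfp369, Zfp169, Zfp931, Zfp292, Zfp607, Zfp87 and Zfp831. Zfp369 (chr13:65277228-65304222), which encodes a KRAB protein of the family that binds the neurotrophin receptor p75, had 8.64 and 7.39 FPKM in the controls, against 12.4 and 13.1 in Foxa1/2cKO. The 2 Foxa1/2cKO samples were close to each other and 1.59-fold above the controls on average, with a log2 fold change of 0.61 (SE 0.12). Zfp169 (chr13:48480763-48513493), with a KRAB box and 17 fingers, had 9.27 and 9.24 FPKM in controls and 11.3 and 17.4 in Foxa1/2cKO. For Zfp169 the log2 fold change was 0.55 (SE 0.21), and it came to 0.26 without Foxa1/2cKO 2 and to 0.84 without Foxa1/2cKO 1.

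Zfp931 had 0.826 and 0.952 FPKM in the controls, against 1.77 and 1.42 in Foxa1/2cKO (log2 fold change 0.46, SE 0.18), and 16.7% of the 50-base stretches of its transcript occur in another gene. These values rest on 22, 23, 34 and 28 reads, and Zfp931 entered the tested genes through the Foxa1/2cKO samples alone. Zfp292 (chr4:34803110-34882983), a long protein without a KRAB box, had 23.4 and 23.8 FPKM in controls and 30.2 and 33.7 in Foxa1/2cKO (0.42, SE 0.10). The controls of Zfp292 differed by far less than the groups did. Zfp607 had 3.58 and 3.86 FPKM in the controls, against 4.25 and 6.16 in Foxa1/2cKO (0.38, SE 0.19). The log2 fold change of Zfp607 came to 0.15 without Foxa1/2cKO 2, which alone was far above the controls. Zfp87 (chr13:67515781-67526231) had 14.2 and 13.5 FPKM in controls and 16.5 and 19.7 in Foxa1/2cKO (0.36, SE 0.12), and 0.24 was left without Foxa1/2cKO 2. Zfp831 (chr2:174598682-174710832) had 5.86 and 6.07 FPKM in the controls, against 7.73 and 7.72 in Foxa1/2cKO (0.33, SE 0.10). The samples of each genotype lay close together for Zfp831.

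In the other direction, the largest differences with groups apart were in Zfp580, Zfp326, Zfp689, Zfp74, Zfp827, Zfp839, Zfp414 and Zfp39. Zfp580 (chr7:5038519-5053723), a short protein with 3 fingers, had 14.0 and 10.3 FPKM in controls and 6.72 and 8.92 in Foxa1/2cKO. The controls themselves differed, and the log2 fold change of -0.57 (SE 0.20) ranged from -0.78 to -0.37 with 1 sample left out. Zfp326 (chr5:105876556-105915818), a subunit of a complex that links RNA polymerase II to splicing, had 10.9 and 11.8 FPKM in the controls, against 7.89 and 8.90 in Foxa1/2cKO (-0.40, SE 0.11). Zfp414 (chr17:33629092-33631716) had 30.7 and 31.9 FPKM in controls and 25.9 and 25.8 in Foxa1/2cKO (-0.27, SE 0.08). Of the 50-base stretches of Zfp414, 43.9% are also annotated in the gene Gm20507, and the effect of this on its reads was not tested.

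The other lower members had values of 2.07 to 7.77 FPKM. Zfp689 had 3.10 and 2.91 in the controls, against 2.46 and 2.07 in Foxa1/2cKO (log2 fold change -0.30, SE 0.15). Zfp74 had 4.41 and 5.52 in controls and 4.39 and 3.33 in Foxa1/2cKO (-0.30, SE 0.18), so that control 1 and Foxa1/2cKO 1 nearly touched and -0.14 was left without Foxa1/2cKO 2. Zfp827 had 7.52 and 7.77 in the controls, against 6.48 and 5.69 in Foxa1/2cKO (-0.29, SE 0.11). Zfp839 had 3.77 and 4.25 in controls and 3.23 and 3.001 in Foxa1/2cKO (-0.28, SE 0.13), and Zfp39 had 5.46 and 6.42 in the controls, against 4.98 and 4.56 in Foxa1/2cKO (-0.26, SE 0.13), with -0.16 left without control 2.

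**Figure D4:**
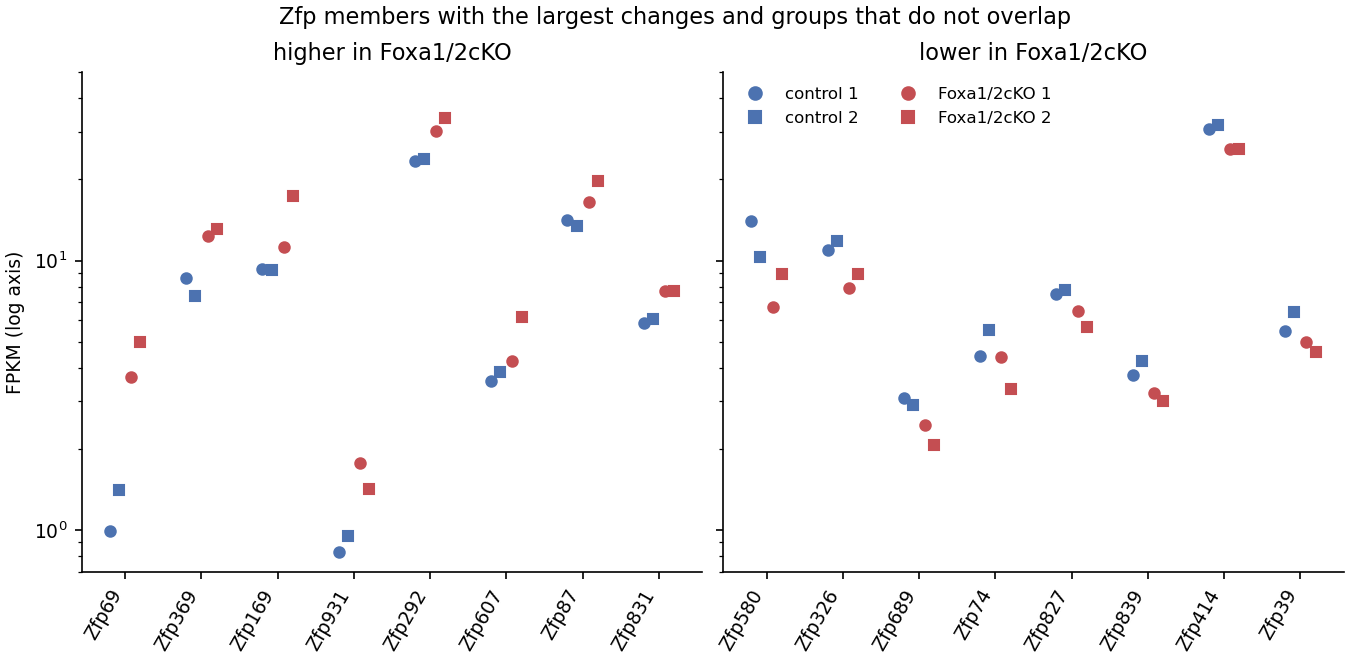
FPKM in each sample, on a log axis, for the 8 Zfp members with the largest higher (left) and lower (right) log2 fold changes among those whose groups do not overlap, with controls in blue and Foxa1/2cKO in red. Zfp69 runs from 0.989 to 4.995 FPKM, while the means of the other 15 members differ by less than 2-fold between the genotypes.

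The most highly expressed members differed by little between the genotypes. Zfp207, which binds the checkpoint protein Bub3 at mitotic spindles, was the highest, with 79.1 and 74.0 FPKM in controls and 80.0 and 96.3 in Foxa1/2cKO (log2 fold change 0.20, SE 0.12). Its log2 fold change came to 0.06 without Foxa1/2cKO 2, and without Foxa1/2cKO 1 to 0.33. Zfp740 ranged from 61.2 to 74.2 FPKM, Zfp664 from 40.1 to 50.4 and Zfp330, a nucleolar protein, from 41.5 to 50.1. The groups overlapped for each of these 3, and all 3 were highest in Foxa1/2cKO 2. For Zfp384, which ranged from 32.7 to 39.0 FPKM, the groups overlapped too.

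Of the 8 most highly expressed members, 3 had an unadjusted P under 0.05, 2 of them higher and 1 lower, beside 2.39% and 2.15% of all tested genes. Zfp219 had 42.6 and 42.9 FPKM in the controls, against 48.5 and 57.5 in Foxa1/2cKO (log2 fold change 0.30, SE 0.11; 0.18 without Foxa1/2cKO 2). Zfp106, an RNA-binding protein, had 34.4 and 34.8 FPKM in controls and 41.0 and 41.6 in Foxa1/2cKO (0.25, SE 0.08). The samples of each genotype agreed closely for Zfp106, and 25.2% of its 50-base stretches are shared with the gene Gm26899. Zfp362 had 43.5 and 43.4 FPKM in the controls, against 34.8 and 37.97 in Foxa1/2cKO (-0.25, SE 0.09).

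A KRAB box was found in 140 of the 253 members with an annotated coding sequence (55.3%), by a profile of 38 residues whose lowest accepted score was 24.8 bits and whose highest refused score was 6.19. The KRAB members had a median of 12 fingers and a median of mean FPKM of 5.16, against 7 fingers and 13.5 FPKM in the 113 members without the box. Their median log2 fold change was 0.06, with 43 members apart and higher (30.7%) and 13 apart and lower (9.29%), where all tested genes had 18.9% and 17.8%. In the members without the box the median was 0.03, with 27 apart and higher (23.9%) and 17 apart and lower (15.0%), closer to the shares of all tested genes. Without Foxa1/2cKO 2, where all tested genes had 36.4% above both controls and 40.7% below, the KRAB members had a median of 0.04 with 71 above (50.7%) and 34 below (24.3%). The members without the box turned to a median of -0.03, with 42 above (37.2%) and 51 below (45.1%). At an unadjusted P under 0.05 by limma, 4 KRAB members were higher (2.86%) and 0 lower. Of the members without the box, 7 were higher (6.19%) and 4 lower (3.54%), beside 2.39% and 2.15% of all tested genes. No test of the difference between the 2 groups of members was made, and their fold changes overlapped over most of the range.

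Fingers were counted in the same coding sequences. The largest number was 36, in Zfp142, and 5 members, such as Zfp330 and Zfp839, had no match to the C2H2 pattern. The 105 members with 12 or more fingers had a median log2 fold change of 0.07, with 36 apart and higher (34.3%) and 9 apart and lower (8.57%). The 148 with fewer had a median of 0.02, with 34 apart and higher (23.0%) and 21 apart and lower (14.2%), beside 18.9% and 17.8% of all tested genes. Without Foxa1/2cKO 2, the first group had 50 above both controls (47.6%) and 30 below (28.6%), and the second 63 (42.6%) and 55 (37.2%), beside 36.4% and 40.7% of all. Spearman's rho of gene length with log2 fold change was 0.12 over the 256 members and 0.14 over all tested genes. Over the members it came to 0.18 without control 1 and to 0.046 without control 2, and genes are not independent replicates.

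Some members share sequence with another annotated gene. In 32 members more than 20% of the 50-base stretches of the longest transcript occur in another annotated gene, while the median member shared 0.84%. Whether the other gene is a copy elsewhere or overlaps the member was not examined, and the effect on the reads was not tested. The median log2 fold change of these 32 was -0.03, with 5 apart and higher (15.6%) and 6 apart and lower (18.8%), near the 18.9% and 17.8% of all tested genes. In the other 224 members the median was 0.04, with 67 apart and higher (29.9%) and 25 apart and lower (11.2%). Leaving out Foxa1/2cKO 2, the 32 had 9 above both controls (28.1%) and 12 below (37.5%), with a median of 0.0085. The 224 then had 106 (47.3%) and 74 (33.0%), beside 36.4% and 40.7% of all tested genes.

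Some members have a known role, and they are described here by that role, chosen after the values of all members had been written. Among the KRAB proteins, Zfp445, which keeps imprints in early embryos together with Zfp57, had 34.0 and 32.0 FPKM in controls and 31.9 and 33.0 in Foxa1/2cKO. The 2 genotypes overlapped for Zfp445, and Zfp57 itself was listed at 0 in all 4 samples. Zfp809, which silences murine leukaemia proviruses through their primer binding site, had 7.13 and 8.46 FPKM in the controls, against 8.31 and 9.11 in Foxa1/2cKO, and its groups overlapped too. Zfp932, a repressor of endogenous retroviruses, had 7.89 and 7.99 FPKM in controls and 7.05 and 5.91 in Foxa1/2cKO (log2 fold change -0.26, SE 0.12). Both Foxa1/2cKO samples were below the controls for Zfp932, with -0.15 left without Foxa1/2cKO 2, and the gene shares 45.2% of its 50-base stretches with Gm15446.

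Among the members without a KRAB box, Zfp335, needed for T cell maturation in the thymus, had 34.4 and 31.5 FPKM in the controls, against 30.1 and 32.0 in Foxa1/2cKO. Zfp91, a ubiquitin ligase of the NF-κB pathway, ranged from 22.1 to 23.9 FPKM over the 4 samples. The transcription factor Zfp143 ranged from 19.1 to 24.8 FPKM and Zfp281 from 23.1 to 27.7. The groups overlapped for these 4 genes. Zfp410, an activator of the remodeller gene Chd4, had 16.4 and 16.5 FPKM in controls and 17.8 and 20.2 in Foxa1/2cKO (log2 fold change 0.19, SE 0.10), and Chd4 had 189 and 177 in the controls, against 178 and 210 in Foxa1/2cKO. Zfp148 had 17.5 and 17.7 FPKM in controls and 19.6 and 18.99 in Foxa1/2cKO (0.12, SE 0.08). For Zfp410 and Zfp148 the groups lay apart, with 0.10 left for Zfp410 without Foxa1/2cKO 2, and for Chd4 they overlapped.

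Of 34 partner genes through which KRAB proteins silence their targets, 33 were tested. Atf7ip2 was not, being at 0.0506 and 0.0279 FPKM in the controls and listed at 0 in both Foxa1/2cKO samples. No partner passed an adjusted P of 0.05 by limma. One had an unadjusted P under 0.05, the Resf1 gene 2810474O19Rik, which regulates Setdb1, with 15.6 and 16.1 FPKM in the controls, against 18.7 and 21.8 in Foxa1/2cKO (log2 fold change 0.33, SE 0.11). Trim28 had 161 and 157 FPKM in controls and 146 and 152 in Foxa1/2cKO (-0.10, SE 0.08), with groups apart. Setdb1 ranged from 29.4 to 30.2 FPKM with groups that overlapped. The median log2 fold change of the 33 was 0.02, with 7 apart and higher (21.2%) and 9 apart and lower (27.3%), beside 18.9% and 17.8% of all tested genes. The 1 partner with an unadjusted P under 0.05 is 3.03% of the list, near the share of all tested genes that were higher (2.39%). The partners had, without Foxa1/2cKO 2, a median of -0.0076. Of them 13 were above both controls (39.4%) and 15 below (45.5%), beside 36.4% and 40.7% of all tested genes.

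Some partners were low in Foxa1/2cKO 2 alone, as the cycling genes were. Uhrf1, which guides Dnmt1 to newly copied DNA, had 77.4 and 81.2 FPKM in the controls, against 80.1 and 32.5 in Foxa1/2cKO. Dnmt1 had 81.2 and 82.7 in controls and 80.1 and 52.1 in Foxa1/2cKO, and Cbx5, a heterochromatin protein, had 24.9 and 27.7 in the controls, against 28.6 and 16.7 in Foxa1/2cKO. The part of cell cycling in these values was not tested. These 3 were picked after their values were seen.

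The members lay on 20 chromosomes, with 69 on chromosome 7, 30 on chromosome 17 and 25 on chromosome 13. On chromosome 7, 19 members were apart and higher and 11 apart and lower, where all 823 tested genes of the chromosome had 13.5% and 22.1%. On chromosome 17 the counts were 8 and 5, beside 15.7% and 22.0% of 587 tested genes. On chromosome 13, 9 members were apart and higher and none lower, beside 27.0% and 14.0% of 429 tested genes. On chromosome 8, with 19 members, the counts were 3 and 2, beside 16.8% and 18.01% of 583 tested genes, and on chromosome 6 they were 4 and 1 of 16. Chromosomes 5 and 9 held 14 members each, with 3 and 3 on the former and 3 and 1 on the latter. The counts on chromosomes 5, 6 and 9 stand beside 18.9% and 17.8% of all tested genes. On chromosome 18, picked after its values were seen, 5 of 8 were apart and higher and none lower, beside 25.4% and 11.5% of 244 tested genes. Without Foxa1/2cKO 2, chromosome 7 had 26 members above both controls and 29 below, beside 28.4% and 48.97% of all its tested genes. Chromosome 17 then had 21 and 6, beside 32.7% and 48.04% of its tested genes. Chromosome 13 had 15 and 2, beside 48.3% and 29.1%. Chromosome 8 had 4 and 9, beside 32.6% and 43.4%, and chromosome 18 had 6 and 1, beside 43.9% and 28.7%.

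The 15 members from Zfp712 to Zfp273 (chr13:67038594-67827000) form 1 cluster of KRAB genes. The cluster was singled out after its values were seen. Its median log2 fold change was 0.10, with or without Foxa1/2cKO 2. None of the 15 was apart and lower and 6 were apart and higher (40.0%), beside 14.0% and 27.0% of all tested genes on chromosome 13. The 6 were Zfp595, Zfp429, Zfp87, Zfp748, Zfp738 and Zfp85. Zfp748 had 6.01 and 5.25 FPKM in controls and 7.31 and 6.62 in Foxa1/2cKO. Zfp738 had 5.74 and 5.02 in the controls, against 5.84 and 7.44 in Foxa1/2cKO, with Foxa1/2cKO 1 barely above control 1. Zfp429 (25.4%), Zfp738 (20.3%) and Zfp85 (31.2%) share these percentages of their 50-base stretches with another annotated gene. The effect of this on their reads was not tested. Zfp708, whose sequence is held whole by the gene Gm28557, ranged from 3.15 to 3.44 FPKM.

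**Figure D5:**
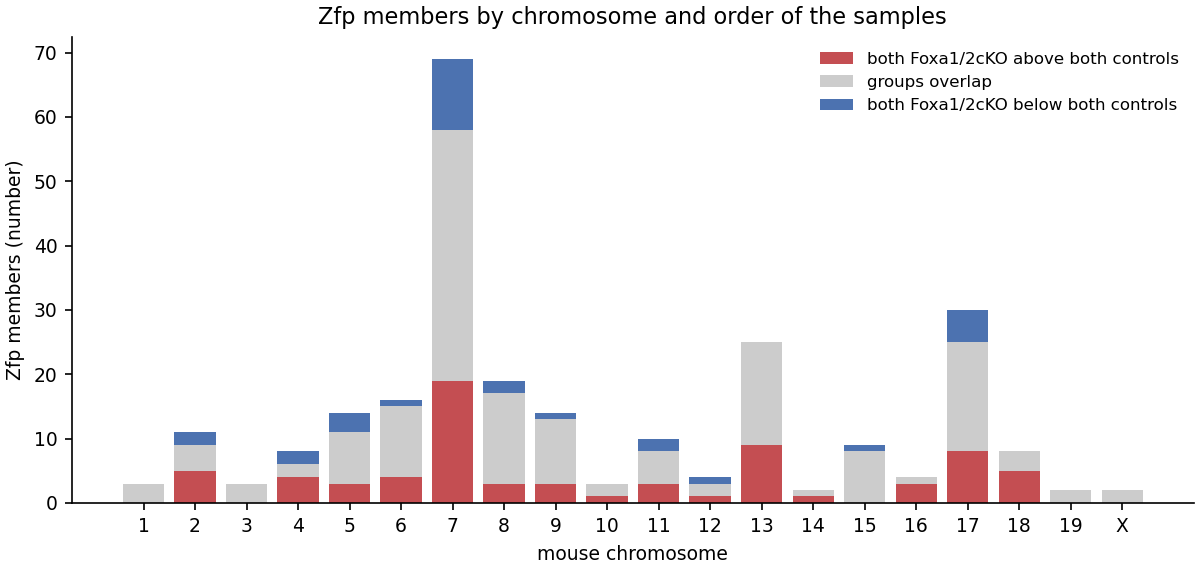
Number of Zfp members on each mouse chromosome, divided into those with both Foxa1/2cKO samples above both controls (red), overlapping groups (grey) and both below both controls (blue). Chromosome 7 holds the most members, 69, and chromosome 13 holds 9 red and no blue among 25. Of the 429 tested genes on chromosome 13, 27.0% were apart and higher and 14.0% apart and lower.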

How the data were processed

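Reads were aligned by the authors on BaseSpace to the mm10 assembly (RefSeq annotation) and counted per gene by HTSeq, mode union, and the submitters' processing notes also name TopHat and Picard. The deposited table holds the FPKM of each gene in each sample, and the step that made them is not given in the sources used here. For 100% of 16069 genes above 0, the FPKM of the samples fell on multiples of 1 step, which gave reads (tolerance 0.001). In 11 members these reads had to be multiplied for the gene length to be a whole number. Reads on listed genes came to 10399872 to 14487125 per sample.

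Foxa1/2cKO was compared with control by limma 3.58.1 in R 4.3.3 on log2(FPKM + 1), with a mean-variance trend, for 10776 genes that reached an FPKM of 1 in 2 or more samples, with Benjamini-Hochberg adjustment over all of them. The pseudocount of 1 understates the change of low genes. The study's own test, a count model with fdrtool, was not rerun. The limma code was tested on simulated data. Fingers, KRAB boxes and shared 50-base stretches were found in GENCODE M21 (GRCm38), and positions come from RefSeq matched by symbol. Promoter sequences are from RefSeq.

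The members and lists were chosen with earlier results of these data known. Named genes are Zfp69, the 8 members highest in FPKM, the 8 largest fold changes per direction with groups apart, 3 on each side of the limit, the neighbours of Zfp69, Trim28, Setdb1 and partners with an unadjusted P under 0.05. Others are named by role or as exceptions. The alternatives were another pseudocount (0.1), filter, scaling, member limit, threshold or limma form, a replicate block and leaving out each sample.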

Additional observations from a re-analysis of the deposited data

How the results depend on the processing

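With the replicate number as a block in limma, 4 members were higher and 2 lower at an unadjusted P under 0.05, in place of 11 and 4. Of all 10776 tested genes, 165 were then higher and 213 lower, in place of 258 and 232. With the block, 0 members passed an adjusted P of 0.05. Samples with the same number did not deviate together (correlation -0.06 over all tested genes). This correlation cannot show whether the numbers pair samples, because Foxa1/2cKO 2 stood apart from the others. The labels give no shared litter or day. Limited to a mean FPKM of at least 5, 52 members were apart and higher and 20 apart and lower, in a smaller set. Of the 125 members in the lower FPKM group above that limit, 13 were apart and lower (10.4%). Of the 40 in the highest FPKM group, 7 were (17.5%), where the share over all 256 members was 12.1%. The smaller count therefore does not show a smaller share. All tested genes at these levels had 18.2% and 14.8% apart and lower. Apart and higher were 40 of the 125 and 12 of the 40, beside 19.7% and 21.1% of all such genes. Without Foxa1/2cKO 2, the 125 had 54 above both controls (43.2%) and 43 below (34.4%), beside 37.7% and 38.4% of all such genes. The 40 then turned to 14 above and 20 below, beside 33.2% and 46.6%. At 2 to 5 FPKM, 38 of 69 members were then above and 19 below, and at 1 to 2 FPKM 9 of 22 and 4. With 1 sample left out, the median log2 fold change of the members ranged from 0.025 to 0.072, the members apart and higher from 93 to 137, apart and lower from 50 to 86, with an unadjusted P under 0.05 higher from 1 to 68 and lower from 0 to 20, and with an adjusted P under 0.05 from 0 to 44. The 44 came from leaving out Foxa1/2cKO 1, when limma called 2559 of all tested genes. The lone Foxa1/2cKO sample is then assumed to vary like the controls, which were closer to each other. With 1 sample left out, 36.3% to 53.5% of the members were apart and higher, beside 27.3% to 46.3% of all tested genes. Apart and lower were 19.5% to 33.6% of the members, beside 24.5% to 40.7% of all. Each of these fits leaves 1 sample in a genotype, so their counts by P are not read as a result about the members. No member passed an adjusted P of 0.05 under any of the other settings, a threshold of 0.1 included.

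Of 380 values of 32 named genes under 12 alternatives, 350 kept their direction and side of the threshold and 17 changed sign. With upper-quartile scaling Zfp740 came to -0.0023, Zfp664 to -0.0034 and Setdb1 to -0.014, and scaled to all recovered reads to -0.0064, -0.0075 and -0.018. With 1 sample left out, the log2 fold change ranged from -0.11 to 0.16 for Zfp740, from -0.14 to 0.19 for Zfp664, from -0.064 to 0.20 for Zfp330, from -0.21 to 0.038 for Zfp384, from -0.17 to 0.10 for Zfp455, from -0.025 to 0.07 for Zfp248, from -0.16 to 0.042 for Exo5, from -0.037 to 0.45 for Smap2 and from -0.0030 to 0.034 for Setdb1. The cause of these changes of sign was not tested. With 2 samples per genotype and 51 members under 100 reads in some sample, counting error limits what small differences in low genes can show.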
